A study of Drosophila melanogaster with 6 samples.

Results

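The levels of 7 genes that start or restrain neural fate at the morphogenetic furrow were compared: ato, da, sens and sca on the proneural side, and emc, h and nvy on the antagonist side. They were taken by symbol from a table of 17609 genes, and all 7 members passed the filter on low counts. The furrow is the front of differentiation that sweeps across the eye disc of the larva. Ahead of it cells proliferate, and in it the basic helix-loop-helix (bHLH) factor Atonal, paired with the E protein Daughterless, makes cells competent to become R8, the founder photoreceptor. Around each future R8 the secreted Scabrous protein and Notch signalling silence neighbours, while Senseless fixes the R8 fate. Hairy, a bHLH repressor made ahead of the furrow, and Extramacrochaetae, a helix-loop-helix protein without a basic region that captures Daughterless and its partners, hold the process back. The same genes also act in sensory organs outside the eye, ato among them in the antenna.

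RNA came from eye-antennal discs of 3rd instar larvae raised at 25 °C: 3 biological replicates of ey-Gal4 with UAS-dTet (dTet discs) and 3 of ey-Gal4 with w1118 (control discs). ey-Gal4, present in both genotypes, drives a UAS transgene from an eyeless enhancer, so expression in dTet discs is aimed at the eye field while the dissected discs also hold antennal and head tissue. The transgene encodes dTet, the fly member of the Tet dioxygenase family, and the study asked what its overexpression does to gene expression in the developing eye. In bulk tissue, fewer cells of a type and less RNA per cell cannot be told apart.

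Libraries held 16395675 to 20242356 counted read pairs. A gene was called where its adjusted p in edgeR was under 0.05, and 1074 genes were called with all 6 libraries, against 3231 without control replicate 1. Levels are given as CPM, counts scaled to the effective library size by TMM, or as CPM per kilobase of exon where genes are set against each other. Tet itself was at 412.5 ± 46.3 CPM in dTet discs and 349.6 ± 34.5 CPM in control discs (SD, n = 3 each), a difference that was not called (edgeR adjusted p = 0.244). Its counts do not separate the endogenous gene from a transgene. The discs had the markers of an eye-antennal disc, in unequal amounts: the 5 photoreceptor markers (chp, elav, gl, sev, boss) summed to 45.6 to 46.5 CPM in dTet discs and 602.8 to 677.8 CPM in control discs, and all 5 were called lower in dTet. The 4 antennal markers (Dll, ss, ct, al) summed to 413.8 to 426.8 CPM in dTet discs and 205.3 to 230.1 CPM in control discs, and all 4 were called higher. These shifts stand beside every result below, and their part in it was not tested. Both marker lists were chosen with earlier results of these data known. Over all tested genes, 7.64% were called lower and 3.77% higher in dTet.

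Of the 7 genes, 2 changed. Both h and ato fell in dTet discs, and da, sens, sca, emc and nvy did not pass the test. At an adjusted p under 0.05, 11.4% of the 9417 tested genes were called, 7.64% lower and 3.77% higher in dTet. None of the 7 was called higher (0 by edgeR, 0 by DESeq2 and 0 by limma-voom), and 1 of them, emc, was higher at an unadjusted p under 0.05. The median log2 fold change of the members was -0.18, against -0.02 over all tested genes. The dTet and control libraries did not overlap for 4 members (h, ato and nvy below, emc above), as for 32.6% of all tested genes.

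**Figure D1:**
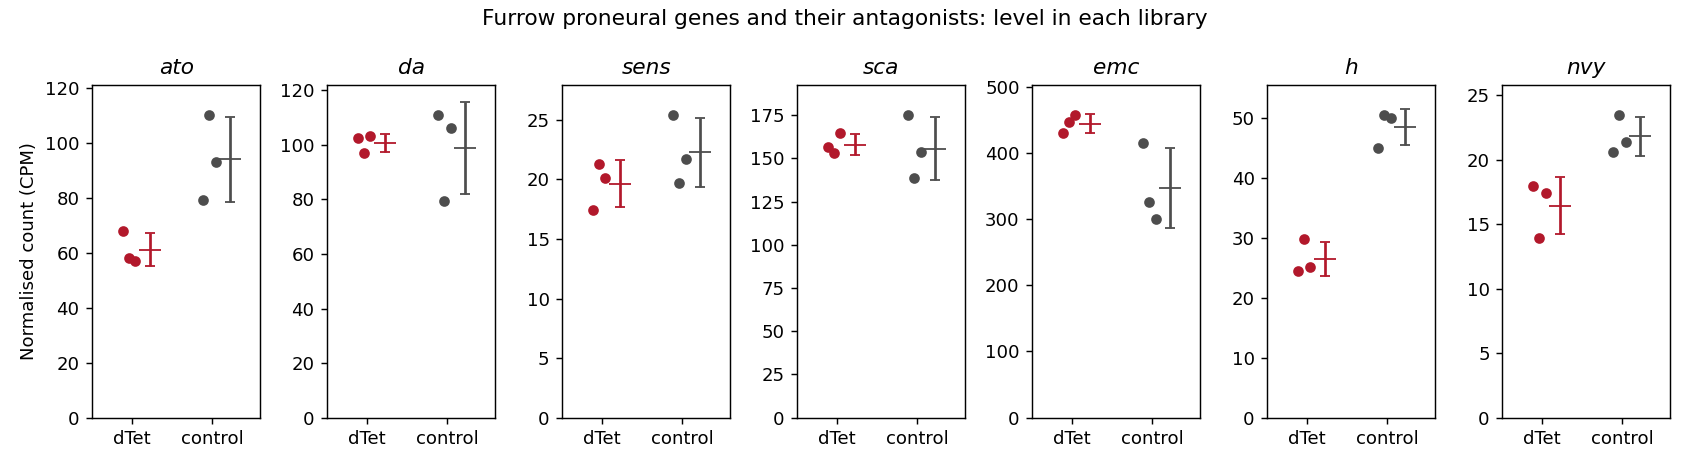
Level of each of the 7 genes in CPM (vertical axes, starting at 0), with 1 point per library and the mean ± SD of 3 libraries beside it, dTet in red and control in grey. The dTet points of ato, h and nvy lie wholly below the control points, those of emc lie wholly above, and those of da, sens and sca overlap them.

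Among the proneural genes, ato, on chromosome arm 3R at 8278052 to 8279274 (dm6, plus strand, a single exon of 1223 bases), encodes the factor that selects R8. Its level was 68.1, 58.3 and 57.2 CPM in the 3 dTet libraries, against 79.2, 110.1 and 92.9 CPM in the 3 control libraries. Every dTet library lay below every control library, and control replicate 1 was the control nearest to dTet. The means were 61.2 ± 6.01 CPM in dTet discs and 94.1 ± 15.5 CPM in control discs (SD, n = 3 each), so dTet discs kept 65.0% of the control level. The log2 fold change was -0.62 (SE 0.14, 95% interval -0.94 to -0.30; edgeR adjusted p = 0.0218). Leaving out 1 library ended this call in 4 of 6 fits: adjusted p was 0.0963 and 0.108 when dTet replicates 2 and 3 were dropped in turn, and 0.0713 and 0.0762 for controls 2 and 3.

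da, on 2L at 10388105 to 10393228 (plus strand), encodes the widely expressed E protein that pairs with Atonal and with the other proneural factors. It stood at 102.4, 97.0 and 103.1 CPM in dTet libraries and at 110.9, 79.6 and 106.1 CPM in control libraries. The dTet values lay inside the control range. The log2 fold change of 0.03 had a 95% interval of -0.28 to 0.33, that is from 0.82 to 1.26 times the control level (adjusted p = 0.91). An antisense gene, asRNA:CR45789, overlaps the end of da and had 21 counts over all 6 libraries. The counting used strand.

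sens, on 3L at 13396228 to 13401125 (minus strand), encodes the zinc finger factor that acts after Atonal to keep the R8 fate. Its libraries read 17.5, 21.3 and 20.1 CPM in dTet and 25.4, 19.7 and 21.7 CPM in control. The groups overlapped. The log2 fold change was -0.18, with a 95% interval of -0.55 to 0.19 (0.68 to 1.14 times control; adjusted p = 0.491).

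sca, on 2R at 12780541 to 12802010 (plus strand), encodes the secreted fibrinogen-related protein that spaces R8 cells. It was measured at 156.4, 152.9 and 164.5 CPM in dTet libraries and at 174.9, 138.4 and 153.4 CPM in control libraries. As for da, all 3 dTet values lay within the control range. Its log2 fold change of 0.02 had a 95% interval of -0.24 to 0.28 (0.85 to 1.21 times control; adjusted p = 0.92). Of the 4 proneural genes, ato was therefore the one called. An antisense gene inside sca, asRNA:CR45137, had 27 counts in all.

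**Figure D2:**
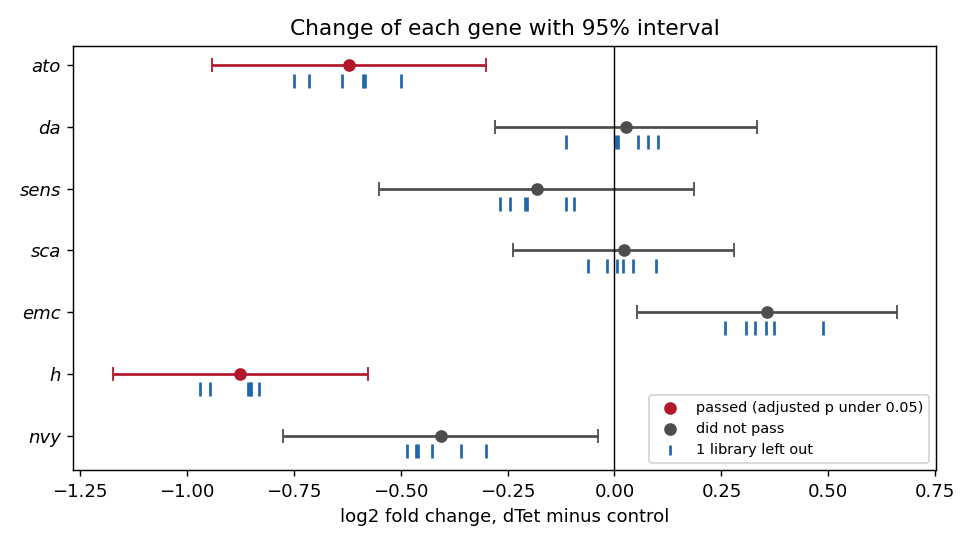
log2 fold change of dTet minus control for each gene (horizontal axis), with points for the edgeR fit on 6 libraries, bars for its 95% interval, and blue ticks for the same fit with 1 library left out. Only the intervals of h and ato, in red, belong to genes past the adjusted threshold. The ticks of da run from -0.11 to 0.10 and those of sca from -0.062 to 0.10, so both cross 0.

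Of the antagonists, h moved most. hairy, on 3L at 8675759 to 8679253 (plus strand), is a Hes-type bHLH repressor that restrains neural fate ahead of the furrow together with emc. Its level was 24.5, 29.8 and 25.2 CPM in dTet libraries, against 45.0, 50.5 and 50.1 CPM in control libraries. The groups were far apart, with the highest dTet library well below the lowest control. dTet discs averaged 26.5 ± 2.89 CPM and control discs 48.6 ± 3.05 CPM (SD, n = 3 each), which left 54.5% of the control level. The log2 fold change was -0.88 (SE 0.13, 95% interval -1.17 to -0.58; adjusted p = 0.00264), and h passed in each of the 14 other fits at the same threshold, with adjusted p from 1.23e-05 to 0.0194.

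emc, on 3L at 749400 to 753492 (plus strand), encodes the Id-type inhibitor of Daughterless and its partners. Its libraries stood at 429.3, 445.9 and 456.8 CPM in dTet and at 414.8, 325.8 and 299.8 CPM in control. Every dTet library was above every control library, with control replicate 1 nearest to them. The means were 444.0 ± 13.8 CPM in dTet discs and 346.8 ± 60.3 CPM in control discs (SD, n = 3 each). The log2 fold change of 0.36 (95% interval 0.05 to 0.66) did not pass (unadjusted p = 0.0262, adjusted p = 0.122). It passed without control replicate 1 (log2 fold change 0.49, adjusted p = 0.00151), where 3231 genes were called in all, and in none of the 13 other fits. emc lies in an intron of hng3 on the opposite strand, which was at 67.4 ± 8.20 CPM in dTet discs and 67.4 ± 12.8 CPM in control discs.

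nvy, on 2R at 24275734 to 24291084 (plus strand), encodes the fly member of the ETO/MTG family of corepressors, which in mammals bind E proteins, the family of Daughterless. Its counts were 255 to 357 per dTet library and 375 to 441 per control library. That gave 18.0, 13.9 and 17.4 CPM in dTet discs and 20.6, 23.5 and 21.4 CPM in control discs. The groups did not overlap. The log2 fold change was -0.41 (95% interval -0.77 to -0.04; unadjusted p = 0.034, adjusted p = 0.14), and it passed in none of the alternative fits.

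Set against each other per kilobase of exon, the genes held 1 order in all 6 libraries: emc, ato, sca, da, h, sens and nvy, high to low. emc was at 217 ± 6.74 CPM per kilobase in dTet discs and 169 ± 29.4 in control discs (SD, n = 3 each), a level above that of 96.9% of tested genes in dTet and 95.6% in control. ato came next, at 50.03 ± 4.91 CPM per kilobase in dTet discs and 76.9 ± 12.7 in control discs. nvy was lowest, at 4.70 ± 0.63 CPM per kilobase in dTet discs and 6.23 ± 0.425 in control discs. Within each genotype no gene overlapped its neighbour in that order. In dTet discs ato, at 46.8 to 55.7 CPM per kilobase, came close to sca at 40.3 to 43.3, whereas in control discs ato was at 64.8 to 90.0 and sca at 36.5 to 46.1. In dTet discs h was at 10.5 to 12.8 CPM per kilobase and sens at 7.12 to 8.69. The step from h to sens was wider in control discs, with h at 19.3 to 21.6 and sens at 8.05 to 10.4.

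Ratios of counts of 2 genes within a library do not depend on library scaling. In all, 9 pairs were compared by an exact two-sided permutation test, which cannot go below p = 0.1 with 3 libraries against 3. The pairs share genes, so they are not separate evidence. The balance of ato against its partner da was 0.665, 0.601 and 0.555 in dTet libraries and 0.714, 1.38 and 0.876 in control libraries. The groups did not overlap (exact p = 0.1, 0.129 adjusted over the 9 pairs), although control replicate 1 was near the dTet values. Against the inhibitor emc, ato stood at 0.138 ± 0.0179 in dTet discs and 0.280 ± 0.0781 in control discs (SD, n = 3 each), a ratio 1.98-fold lower in dTet without overlap (exact p = 0.1, adjusted 0.129).

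The ratio of ato to h was 2.34 ± 0.417 in dTet discs and 1.93 ± 0.221 in control discs (SD, n = 3 each), and these groups overlapped (exact p = 0.2). The antagonists were also set against da. h to da was 0.263 ± 0.0378 in dTet discs and 0.504 ± 0.117 in control discs, and nvy to da was 0.163 ± 0.0170 in dTet discs and 0.228 ± 0.0590 in control discs (exact p = 0.1 for each). emc to da was 4.41 ± 0.202 in dTet discs and 3.55 ± 0.654 in control discs (exact p = 0.1).

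The genes that act after ato were set against it as well. sca to ato was 2.30, 2.62 and 2.88 in dTet libraries, against 2.21, 1.26 and 1.65 in control libraries, without overlap (exact p = 0.1, adjusted 0.129). sens to ato was 0.325 ± 0.0595 in dTet discs and 0.245 ± 0.0713 in control discs (SD, n = 3 each) and overlapped (exact p = 0.2). sca to sens was tight in control libraries, at 6.88, 7.003 and 7.06, and was 8.95, 7.17 and 8.16 in dTet libraries (exact p = 0.1).

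**Figure D3:**
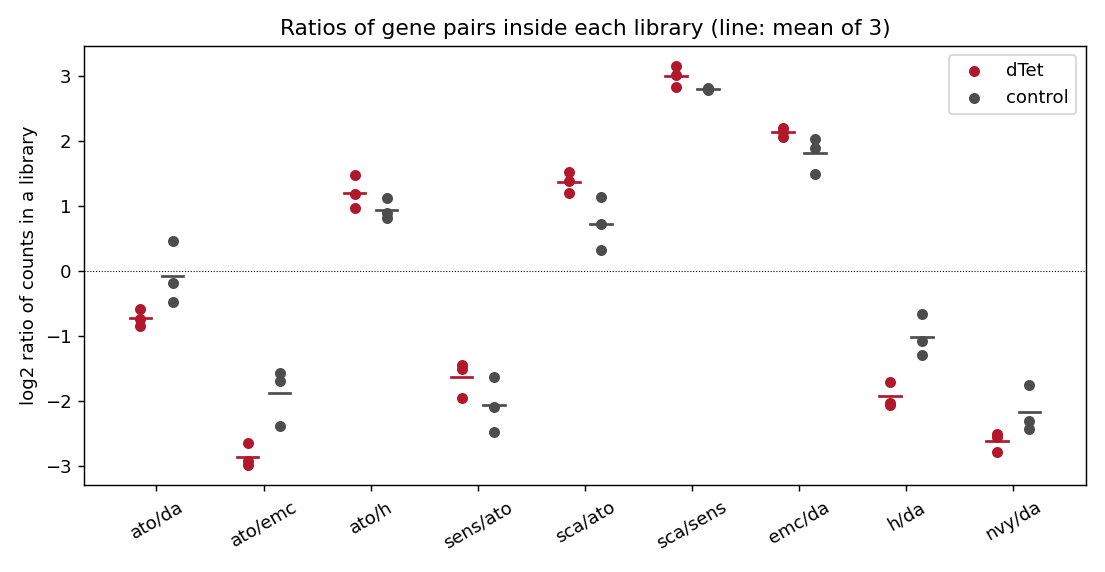
log2 ratio of counts for 9 gene pairs (horizontal axis), with 1 point per library and a line at the mean of 3, dTet left of control in each pair. The dTet points of ato/emc and h/da lie lowest against their controls, and those of ato/h and sens/ato overlap them.

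Regulators of ato in the eye include the factors that specify the eye, the signals that drive the furrow and homeobox genes that confine ato to R8. This list and those below were chosen with earlier results of these data known. Of 15 tested, 9 fell, where 7.64% of all tested genes were called lower, and the median log2 fold change was -1.15. None rose by edgeR or by limma-voom (0 each), 3 (dpp, N and Dl) were higher at an unadjusted p under 0.05, and DESeq2 called 2 of these higher, dpp and N. so fell to 6.88 ± 1.57 CPM in dTet discs, against 100.1 ± 3.78 CPM in control discs, and eya to 32.2 ± 6.80 CPM in dTet discs, against 438.8 ± 42.5 CPM in control discs (SD, n = 3 each). The Pax6 gene ey and dac fell by 2.43 and 2.54 on the log2 scale. The homeobox gene ro, which clears ato from cells around R8, had 1, 0 and 11 counts in dTet libraries and 426, 548 and 432 in control libraries (adjusted p = 0.000125). Its log2 fold change of -6.83 was -9.48 without dTet replicate 3, which held 11 of its 12 dTet counts. Signals of the furrow did not pass in edgeR. hh, named after its values were seen, was at 68.0 ± 3.07 CPM in dTet discs and 62.9 ± 2.70 CPM in control discs, and these groups overlapped. dpp, also named after its values were seen, was at 68.1 ± 2.29 CPM in dTet discs and 49.7 ± 7.91 CPM in control discs (log2 fold change 0.45, adjusted p = 0.0581). Dl was at 298.3 ± 13.9 CPM in dTet discs and 245.9 ± 22.7 CPM in control discs, and N at 1584 ± 76.7 CPM in dTet discs and 1232 ± 182.8 CPM in control discs. Every dTet library was above every control library for dpp, Dl and N. Over all tested genes, the groups did not overlap for 32.6%, in either direction.

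Genes of R8 and of sensory precursors, which act with or after the proneural step, were called lower in 12 of 15 tested, with a median log2 fold change of -1.46. The share called lower over all tested genes was 7.64%, and this list too was chosen with earlier results known. None was called higher by edgeR, DESeq2 or limma-voom (0 each), with 1 at an unadjusted p under 0.05. gl, elav and boss also stand among the photoreceptor markers above. The photoreceptor factor gl was at 1.67 ± 1.02 CPM in dTet discs and 171.7 ± 10.5 CPM in control discs. The neural zinc finger gene scrt was at 1.21 ± 0.231 CPM in dTet discs and 72.4 ± 13.6 CPM in control discs, the protease gene ru at 4.04 ± 0.960 CPM in dTet discs and 146.4 ± 20.6 CPM in control discs, and the neuronal RNA-binding protein gene elav at 23.9 ± 0.173 CPM in dTet discs and 67.3 ± 14.6 CPM in control discs (SD, n = 3 each). boss, named after its values were seen, had 0, 0 and 13 counts in dTet libraries and 163, 90 and 105 in control libraries (log2 fold change -4.75, adjusted p = 0.0162). Beside these stand the log2 fold changes of sens (-0.18) and sca (0.02), neither of which passed. The call of boss ended only in the fit without control replicate 3 (adjusted p = 0.0618). Calls of neur, pros and spi also ended when single libraries were left out, with adjusted p up to 0.111.

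Because so marks eye tissue and Dll antennal tissue, ato, sens and sca were also set against these, with the pairs chosen after the values were seen. ato to so was 13.3, 7.60 and 7.20 in dTet libraries and 0.762, 1.14 and 0.928 in control libraries. sens to so was 2.91 ± 0.456 in dTet discs and 0.222 ± 0.0203 in control discs, and sca to so 23.7 ± 5.95 in dTet discs and 1.55 ± 0.125 in control discs (SD, n = 3 each). On the log2 scale these ratios were higher in dTet by 3.27 for ato, 3.71 for sens and 3.91 for sca. Against Dll they went the other way: ato to Dll was 0.316 ± 0.0207 in dTet discs and 0.921 ± 0.0732 in control discs, sens to Dll 0.102 ± 0.0129 in dTet discs and 0.223 ± 0.0550 in control discs, and sca to Dll 0.818 ± 0.0481 in dTet discs and 1.55 ± 0.364 in control discs. so was called lower and Dll higher in dTet, which fixes the direction of these ratios. They are given as a description and were not tested. Their size also depends on the reference gene. The log2 fold change of so was -3.86, against -3.77 for eya, -2.54 for dac, -2.43 for ey, -1.24 for Optix and -0.996 for toy. Ratios to these other eye genes were not worked out, so the ratios to so do not measure a change per amount of eye tissue.

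Of 5 tested proneural genes other than ato, sc rose (median log2 fold change 0.54), where 3.77% of all tested genes were called higher. None fell by edgeR, DESeq2 or limma-voom, or at an unadjusted p under 0.05 (0 each). The achaete-scute gene sc, which acts in bristle precursors, was at 43.2, 45.8 and 58.1 CPM in dTet libraries and 33.2, 33.1 and 30.03 CPM in control libraries (log2 fold change 0.61, adjusted p = 0.0255). Its neighbour in the same complex, ac, was at 26.01, 34.2 and 36.7 CPM in dTet libraries and 22.5, 21.8 and 22.1 CPM in control libraries, without overlap, and did not pass (log2 fold change 0.54, unadjusted p = 0.00758, adjusted p = 0.059). DESeq2 called both higher (adjusted p = 0.0455 for ac), and limma-voom called 1, sc. The call of sc ended in 5 of 14 alternative fits, among them the replicate block (adjusted p 0.0529 to 0.116). cato, a relative of ato in sensory neurons, was at 5.40 ± 1.80 CPM in dTet discs and 2.66 ± 1.48 CPM in control discs and did not pass (adjusted p = 0.205). amos and l(1)sc, at 10 and 8 counts over 6 libraries, were too low to test. ato and sc, both proneural, thus passed in opposite directions.

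The E(spl) and Hes-type repressors, which carry out Notch-mediated silencing of proneural genes, were lower in 2 of 8 tested, with a median log2 fold change of -0.22. For this list and the next, the share called lower over all tested genes was 7.64%. None was higher by any of the 3 tools, or at an unadjusted p under 0.05 (0 each). E(spl)mgamma-HLH was at 8.78 ± 3.16 CPM in dTet discs and 63.6 ± 11.9 CPM in control discs, and E(spl)mdelta-HLH at 29.7 ± 3.05 CPM in dTet discs and 110.9 ± 13.3 CPM in control discs (SD, n = 3 each). Of 7 Bearded family genes tested, which blunt Notch signalling in proneural clusters, 4 fell (E(spl)m4-BFM, Tom, Brd and E(spl)m2-BFM), with a median log2 fold change of -0.64. DESeq2 called 5 lower and limma-voom 3, and 6 were lower at an unadjusted p under 0.05. Again 0 were higher by each tool or at an unadjusted p under 0.05. Tom was at 182.7 ± 14.4 CPM in dTet discs and 306.3 ± 27.0 CPM in control discs. The calls of Brd and E(spl)m2-BFM ended when single libraries were left out, with adjusted p up to 0.147, and that of E(spl)m2-BFM also with limma-voom (adjusted p = 0.0594) and with the replicate block (adjusted p = 0.0526).

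Of 10 tested cofactors of Hairy, E(spl), Notch and the proneural pathway, 0 were called by edgeR, DESeq2 or limma-voom, with 0 at an unadjusted p under 0.05. By edgeR 11.4% of all tested genes were called in either direction, so few calls would be looked for among 10 genes. gro, the corepressor that Hairy recruits, was at 203.2 ± 7.34 CPM in dTet discs and 190.7 ± 13.3 CPM in control discs (adjusted p = 0.586), and CtBP at 492.4 ± 33.0 CPM in dTet discs and 454.0 ± 29.0 CPM in control discs (adjusted p = 0.513). The median log2 fold change of the list was 0.12.

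**Figure D4:**
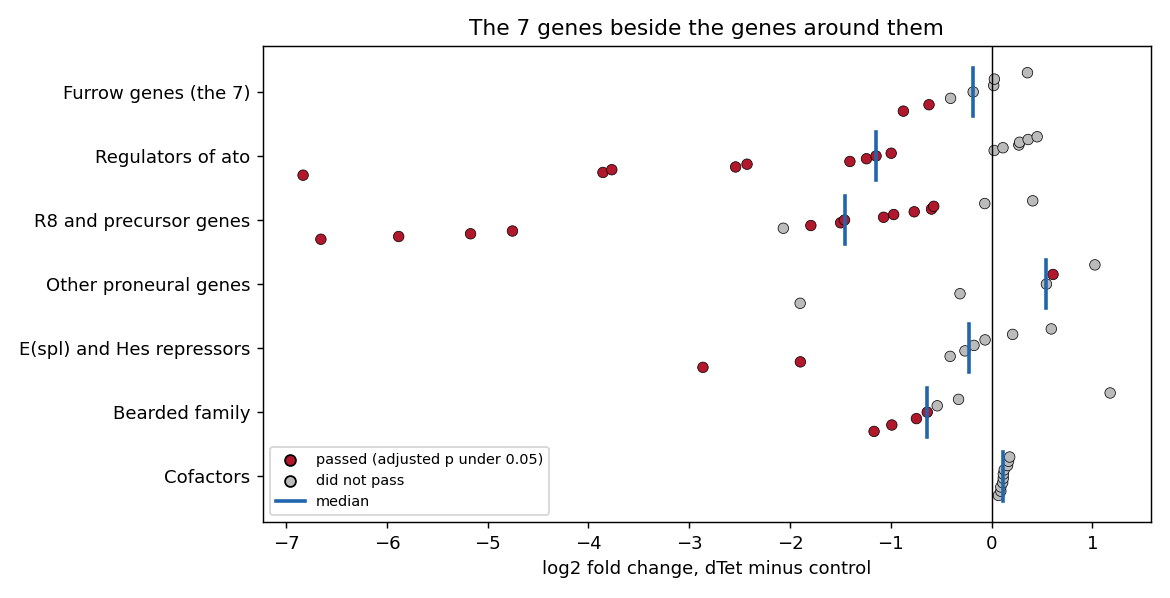
log2 fold change of dTet minus control for the 7 genes (top row) and for the tested genes of 6 lists around them, with red points past an adjusted p of 0.05, grey points not past it and a blue line at each median. The 7 genes lie between -0.88 and 0.36, while regulators of ato reach -6.83 and genes of R8 and precursors -6.66.

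Markers of other cell types moved as follows, where 7.64% of all tested genes were called lower and 3.77% higher. Glial markers were called lower in 2 of 3 (repo and moody), with summed levels of 11.8 to 19.3 CPM in dTet discs and 32.1 to 33.8 CPM in control discs. Each of these calls ended in 4 of 6 fits with 1 library left out, with adjusted p up to 0.0915 for repo and 0.0927 for moody. Hemocyte markers were called lower in 1 of 4 (PPO1), with sums of 130.8 to 152.2 CPM in dTet discs and 197.7 to 250.9 CPM in control discs. PPO1 alone was at 19.1 to 25.2 CPM in dTet discs and 77.8 to 107.9 CPM in control discs. Hml (log2 fold change -0.32) and eater (-0.14) were lower and NimC1 (0.49) higher, and none of these markers passed. Those of myoblasts (0 of 3 called, with 2 higher at an unadjusted p under 0.05 and 1 higher by DESeq2 and limma-voom) summed to 49.5 to 54.3 CPM in dTet discs and 37.1 to 45.4 CPM in control discs, and those of fat body (0 of 3, and 0 at an unadjusted p under 0.05 or by the other tools) to 251.2 to 667.7 CPM in dTet discs and 268.2 to 1307 CPM in control discs. Markers of chordotonal organs, the stretch receptors that ato specifies, summed to 5.18 to 9.03 CPM in dTet discs and 2.10 to 5.25 CPM in control discs, with 0 of 2 tested called by any tool or at an unadjusted p under 0.05. Most of that sum in each library was cato, already given above, at 3.52 to 7.11 CPM in dTet discs and 1.40 to 4.28 CPM in control discs. No listed marker was at 0 in all libraries. The part of these in the levels of the 7 genes was not tested.

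Among 8094 other genes whose log2 CPM averaged at least 1, the pattern of ato over the 6 libraries was nearest to that of ksh, CG3781 and CG14135, by the root mean square difference of centred log2 CPM (0.0419, 0.0430 and 0.0487). ksh, which did not pass (adjusted p = 0.052), was at 16.4 ± 1.44 CPM in dTet discs and 24.9 ± 4.08 CPM in control discs. CG3781 and CG14135 did not pass either (edgeR adjusted p = 0.0988 and 0.0663). The pattern of h was nearest to that of CG46385, CG12895 and St2 (0.0647, 0.0735 and 0.0803). St2 was at 89.3 ± 5.56 CPM in dTet discs and 157.2 ± 5.24 CPM in control discs (SD, n = 3 each).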

How the data were processed

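RNA-seq of 6 eye-antennal disc samples was analysed. Per the labels, stranded total RNA libraries were made. The submitters' processing notes name FastQC 0.12.1, HISAT2 2.2.0 and the dm6 genome. Per the file headers, the authors' deposited values are raw counts of read pairs per gene symbol, made with featureCounts 2.0.6 over exons of FlyBase 6.45 with both mates mapped and strand setting 2; read pairs carry no molecular identifiers. The merged exon length of each gene is the authors' deposited Length value.

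From these counts, filterByExpr with the group chose the genes to test, TMM scaled the libraries, and the quasi-likelihood test of edgeR 4.0.16 (R 4.3.3), two-sided, compared dTet with control across all genes, with Benjamini-Hochberg adjustment over 9417 tested genes and a threshold of 0.05. Standard errors and 95% intervals were derived from each gene's F statistic. Ratios of counts used a prior count of 0.5, and likeness used log2 CPM with a prior count of 2. The alternatives were other scalings and filters, DESeq2 1.42.0, limma-voom (limma 3.58.1), a replicate block, leaving out 1 library at a time, a stricter threshold of 0.01, and a table without ribosomal and small RNA genes. The test was also tried on simulated data with known changes.

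The 7 genes, the lists (other proneural genes, E(spl) and Hes repressors, Bearded family, regulators of ato, R8 and precursor genes, cofactors) and the marker lists were chosen with earlier results of these data known. Named from the lists were up to 4 called genes of smallest adjusted p per direction, with ro, Dl, N, gro, CtBP, cato and amos, and, for each of the 7 that passed, the 3 genes most alike. Genes named to spell out a small count, boss, hh, dpp, the hemocyte markers named singly, CG9626 and the pairs with so and Dll were chosen after their values were seen. The main test did not pair samples by replicate number. Coordinates are those of the count table, and all 7 spans are the same in the RefSeq table of the same assembly, where h is named hry.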

Additional observations from a re-analysis of the deposited data

How the results depend on the processing

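The fall of h passed, and ato, h, sens, emc and nvy kept their sign, in every fit tried. The fold change of ato did not pass at an adjusted p of 0.01 (log2 fold change -0.62), which left 1 of the 7 genes called, nor in 4 of the 6 fits with 1 library left out, where it ran from -0.75 to -0.50. The number of the 7 called ran from 1 to 3 in those fits: 3 without control replicate 1, where emc passed, and 1 without dTet replicate 2 or 3 or control replicate 2 or 3. With 1 library left out, the log2 fold change of emc ran from 0.26 to 0.49 and that of sens from -0.27 to -0.095, nearest to 0 without control replicate 1. That of da ran from -0.11 to 0.10 and that of sca from -0.062 to 0.10; their sign turned without control replicate 2, and that of sca also without dTet replicate 3. Over all genes, calls ran from 560 to 3231 (lower 424 to 1823, higher 131 to 1408) with 1 library left out, and the highest numbers were without control replicate 1. DESeq2 called 1661 (1088 lower, 573 higher), and an adjusted p of 0.01 left 512 (398 lower, 114 higher). The cause of these shifts was not tested. All 9 ratios kept their sign with 1 library left out or with a prior count of 5, but single libraries moved the log2 difference of 6 by over 1.5 times. Without control replicate 2 it was -0.39 for ato to da (-0.65 with all libraries), -0.25 for nvy to da (-0.46) and 0.23 for sens to ato (0.43). Without control replicate 3 it was 0.17 for emc to da (0.33), and without dTet replicate 1 it was 0.13 for ato to h (0.27) and 0.13 for sca to sens (0.21).

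Same-numbered samples did not deviate together (correlations across genes of 0.031, 0.021 and -0.10), and not every sample correlated best with its own number. These correlations cannot tell whether same-numbered samples were handled together. With the replicate block 902 genes and 2 of the 7 were called, with ato at -0.61 (adjusted p = 0.0435). Counts of 255 or more per library for each of the 7 genes leave the spread between 3 libraries as the main limit. The edgeR p-values set the difference between groups against such spread, estimated with information shared across genes.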

Other observations

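The spread of the 7 genes between libraries was wider in control discs for 5 of them. The coefficient of variation of da was 3.29% in dTet discs and 17.0% in control discs, that of emc 3.11% in dTet discs and 17.4% in control discs, and that of sca 3.76% in dTet discs and 11.8% in control discs. h and nvy went the other way, at 10.9% and 13.4% in dTet discs, against 6.29% and 6.82% in control discs. With 3 libraries a group, no test of these spreads was made. The share of all tested genes with a wider spread in control discs was not worked out, so this is not shown to be particular to the 7 genes.

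The tested genes next to the members on the chromosome were not called, where 11.4% of all tested genes were. Some of these neighbours had few counts over all 6 libraries, such as Arr2 (83) and CG9626 (154). h lies between Arr2, at 1.12 ± 0.199 CPM in dTet discs and 0.339 ± 0.246 CPM in control discs (adjusted p = 0.193), and SrpRbeta, at 102.2 ± 4.84 CPM in dTet discs and 99.7 ± 16.2 CPM in control discs (adjusted p = 0.883). The gene next to ato on its left, CG9630, was at 37.9 ± 1.80 CPM in dTet discs and 39.3 ± 2.70 CPM in control discs (adjusted p = 0.795). On the right of ato, CG9626 was at 2.08 ± 1.24 CPM in dTet discs and 0.758 ± 0.277 CPM in control discs (adjusted p = 0.182, SD, n = 3 each).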
